A study of Mus musculus with 49 samples.

Results

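Mouse kidneys taken 2 hours after bilateral ischemia-reperfusion injury (IRI2h) were compared with sham-operated kidneys taken at 4 hours (SHAM4h). In the IRI2h animals, C57BL/6NCrl males of 10 to 12 weeks and 25 to 28 g, both renal pedicles were clamped for 21 minutes under ketamine and xylazine and the kidneys were collected 2 hours after surgery. The SHAM4h animals, of the same strain, sex, age and weight, had sham surgery under the same anesthesia and were collected at 4 hours. The comparison thus rests on 6 of the 49 whole-kidney RNA-seq libraries, 3 per group, and on 14895 of 43309 genes, those with at least 1 FPKM (sequenced fragments scaled to transcript length and to library size) in at least 3 of the 49 libraries. Because the sham kidneys were taken 2 hours later than the injured ones, the clamp and the time since surgery cannot be told apart in this pair of groups. Sham kidneys taken at 24 hours (SHAM24h) are used as a second control, and kidneys taken 4 hours after IRI (IRI4h), from the same model, as the next time point, each with 3 libraries. The study calls its replicates biological replicates. The p-values rest on the spread between kidneys within groups, pooled over all 16 groups of the series and not over the compared kidneys alone.

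Cells that are stressed or stimulated switch on immediate early genes, whose promoters are already open and whose transcription needs no new protein. Many of them encode transcription factors of the AP-1, EGR and NR4A families, which are activated by MAP kinase signaling through serum response factor and CREB. Their own targets include phosphatases and RNA-binding proteins that switch the signal and the messages off again. In the kidney, the proximal tubule, a segment that lives largely on the oxidation of fatty acids and can make glucose, is known to be sensitive to ischemia. The comparison addresses which of these programs had moved when only 2 hours had passed.

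The regulatory sequences that CREB and serum response factor read are printed for 6 genes that were at least 4-fold higher in IRI2h and whose start-site window holds a perfect match. CREB binds the cyclic AMP response element (CRE), searched as TGACGTCA, which reads the same on both strands. Serum response factor binds the CArG box, also symmetric, which was searched by its general form. Each line gives the 250 bases before the RefSeq start on the coding strand (GRCm38.p6), with the matches in capitals.

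Btg2: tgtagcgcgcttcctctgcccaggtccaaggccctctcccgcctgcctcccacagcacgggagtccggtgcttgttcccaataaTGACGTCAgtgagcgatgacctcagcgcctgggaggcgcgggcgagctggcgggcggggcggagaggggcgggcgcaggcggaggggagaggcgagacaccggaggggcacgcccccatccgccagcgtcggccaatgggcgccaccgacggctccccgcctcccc
Ppp1r15a: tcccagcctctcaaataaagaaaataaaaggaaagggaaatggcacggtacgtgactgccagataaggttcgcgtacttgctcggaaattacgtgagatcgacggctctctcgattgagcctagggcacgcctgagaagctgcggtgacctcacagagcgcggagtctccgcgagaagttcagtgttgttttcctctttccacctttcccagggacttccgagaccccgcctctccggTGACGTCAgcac
Dusp1: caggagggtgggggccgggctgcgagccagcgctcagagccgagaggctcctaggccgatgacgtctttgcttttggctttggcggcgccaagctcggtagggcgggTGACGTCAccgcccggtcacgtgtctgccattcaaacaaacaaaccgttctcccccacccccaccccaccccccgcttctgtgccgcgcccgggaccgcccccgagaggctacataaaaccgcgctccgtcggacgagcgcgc
Dusp8: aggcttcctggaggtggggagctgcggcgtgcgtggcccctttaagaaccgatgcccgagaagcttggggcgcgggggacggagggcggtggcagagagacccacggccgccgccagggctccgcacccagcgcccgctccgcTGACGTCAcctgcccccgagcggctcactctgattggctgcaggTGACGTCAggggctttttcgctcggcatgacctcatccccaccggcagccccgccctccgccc
Zfp36: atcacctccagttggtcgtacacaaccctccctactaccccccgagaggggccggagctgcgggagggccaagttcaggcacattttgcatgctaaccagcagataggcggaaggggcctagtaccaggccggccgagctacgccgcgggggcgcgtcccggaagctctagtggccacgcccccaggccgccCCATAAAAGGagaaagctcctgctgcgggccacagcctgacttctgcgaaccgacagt
Dusp5: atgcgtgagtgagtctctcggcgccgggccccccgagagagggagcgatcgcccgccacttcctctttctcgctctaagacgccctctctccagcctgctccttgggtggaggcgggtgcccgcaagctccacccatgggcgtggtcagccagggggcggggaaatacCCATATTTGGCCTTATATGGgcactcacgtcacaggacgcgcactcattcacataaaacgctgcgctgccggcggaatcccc

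The first 4 carry CREs and the last 2 carry CArG boxes. Btg2 encodes an antiproliferative factor and its window lies at chr1:134079156-134079405 on the minus strand, with the CRE 166 to 159 bases before the start. Ppp1r15a encodes GADD34, the subunit that directs phosphatase 1 to eIF2-alpha, and its CRE stands only 12 to 5 bases before the start (chr7:45526269-45526518, minus). Dusp1 and Dusp8 encode dual-specificity phosphatases that inactivate p38 and JNK. The Dusp1 window (chr17:26508473-26508722, minus) has a CRE from 143 to 136 bases upstream. The Dusp8 window (chr7:142095285-142095534, minus) has a first from 107 to 100 and a second from 63 to 56 bases upstream. Zfp36 encodes tristetraprolin, which binds AU-rich messages and speeds their decay, and holds a CArG box from 58 to 49 bases upstream (chr7:28379229-28379478, minus). Dusp5, a nuclear phosphatase for ERK, holds 2 adjoining CArG boxes from 82 to 73 and from 72 to 63 bases upstream (chr19:53528895-53529144, plus).

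Among all genes that were at least 4-fold higher and that held under the alternatives described below, 54 of 88 matched the RefSeq promoter table, with windows of 300 bases from 250 before to 50 after the start. A CRE stood in 6 of these 54 windows (11.1%), against 316 of the 10317 windows of genes tested (3.06%) and 1.88% of all 27025 windows in the table. A CArG box stood in 2 (3.7%), against 1.3% of windows of genes tested. The kappaB site, searched on both strands by its general form, stood in 6 (11.1%), against 5.13%. The AP-1 site TGANTCA, which reads the same on both strands and does not match within a CRE, stood in 4 (7.41%), against 5.33%. Among 202 matched genes that were at least 2-fold lower and held, 3.96% had a CRE and 0.99% a CArG box. These are counts of letters in a window, and the genes were chosen by their change.

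At an adjusted p under 0.05 (limma, Benjamini-Hochberg over all genes tested), 3286 genes were higher in IRI2h than in SHAM4h (22.1%) and 2670 were lower (17.9%). List counts against SHAM4h below are to be read beside these shares. With a fold of at least 4 and a mean above 1 FPKM in either group, 128 were higher (0.859%) and 45 lower (0.302%), or 81 lower without IRI2h-R2. The 3 kidneys of each group did not overlap for 4136 genes on the higher side (27.8%) and 3077 on the lower side (20.7%). The median difference over all genes tested was 0.03 on the log2(FPKM + 0.1) scale, which is used for every log2 value below and which understates the change of genes near 0. Quantile normalization gave 2827 higher and 2884 lower genes and median centring 2890 and 3097, so the split between the directions depended on the scaling.

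The steps between the values of low genes give 41500000 to 47100000 reads per library in IRI2h and 43100000 to 48500000 in SHAM4h. Across genes, IRI2h-R3 correlated at r = 0.971 and 0.966 with the other IRI2h kidneys, which correlated at 0.991 with each other. SHAM4h kidneys correlated at 0.975 to 0.983. IRI2h-R3 deviated from its group mean with exon GC content at a Spearman correlation of 0.70 across genes, against -0.61 and -0.59 for IRI2h-R1 and IRI2h-R2 and -0.09 to 0.21 for the SHAM4h kidneys. Among the quintile of genes with the highest GC content, 45.3% were called higher and 2.36% lower, while in the quintile with the lowest, 3.53% were called higher and 44.7% lower. The difference itself correlated with GC content at 0.52 across genes. The results are also set against 3 alternatives, and a gene is said to hold where it passed in the same direction in all of them. With a correction for GC content and length, 2164 of 14827 genes were higher (14.6%) and 2584 lower (17.4%). Without IRI2h-R3, 2560 were higher (17.2%) and 1308 lower (8.78%). With SHAM24h as the control 984 were higher (6.61%) and 3488 lower (23.4%). List counts under an alternative are to be read beside its shares. The difference correlated with GC content at -0.06 with the correction, but still at 0.34 without IRI2h-R3 and at 0.42 against SHAM24h. All 3 kept 398 of the 3286 higher genes (12.1%, or 2.67% of genes tested), 622 of the 2670 lower genes (23.3%, or 4.18% of genes tested), 88 of the 128 4-fold higher genes (68.8%) and 11 of the 45 4-fold lower genes (24.4%). The part of GC content in any one gene's change was not tested.

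**Figure D1:**
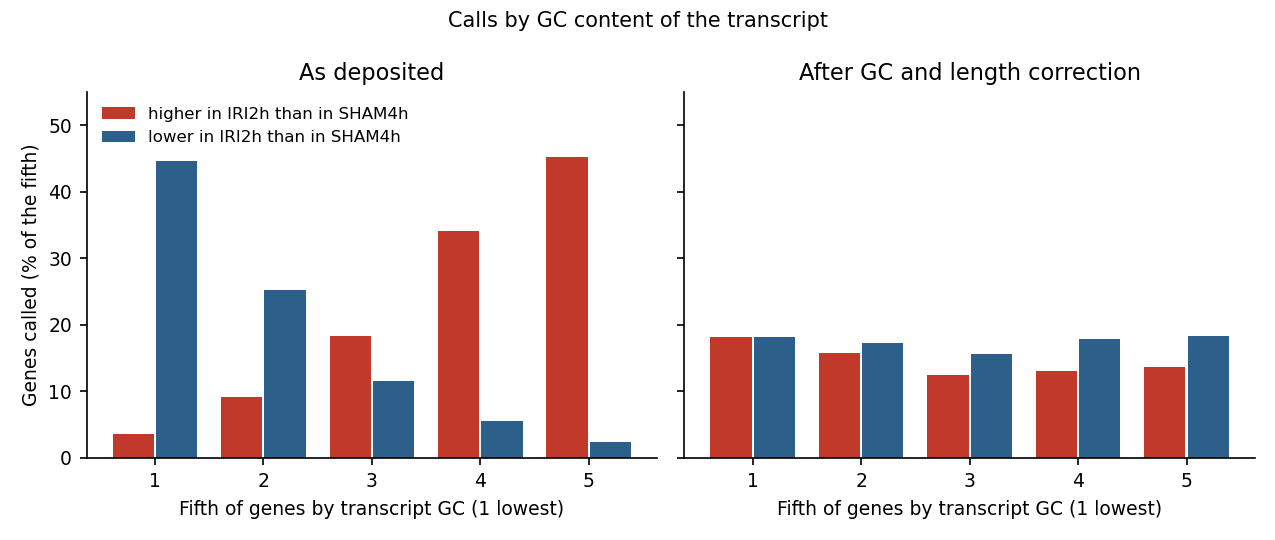
Share of genes called higher (red) and lower (blue) in IRI2h than in SHAM4h, in percent, by quintile of exon GC content from low to high, as deposited and after the GC and length correction. As deposited, the share called higher is 3.53% in the lowest quintile and 45.3% in the highest, and after the correction the shares lie between 12.4% and 18.3% in every quintile.

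The labelled tissue matched its defining markers in all 6 libraries. Slc34a1, the phosphate transporter of the proximal tubule, lay between 1427 and 4483 FPKM, Umod of the thick ascending limb between 1278 and 1893, and Aqp2 of the collecting duct between 164 and 359. In whole kidneys, fewer cells of a type and less RNA per cell cannot be told apart.

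Genes of AP-1, the dimer of FOS and JUN family proteins, were higher in IRI2h. Of 15 tested AP-1 and related factors, 12 were higher in IRI2h, against 22.1% of all genes, and 0 lower. Their median difference was 2.03 on the log2 scale, against 0.03 over all genes. Counts of higher members were 9 with the GC correction, 11 without IRI2h-R3 and 11 against SHAM24h, and 9 held in all of them (Fosb, Fos, Atf3, Jun, Junb, Jund, Fosl1 and, named after their values were seen, Maff and Mafk).

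Fosb had 432, 222 and 337 FPKM in IRI2h kidneys, against 0.213, 0.0934 and 0.119 FPKM in SHAM4h kidneys, a log2 difference of 10.39 (SE 0.54, limma adjusted p = 9.34e-17). Its protein pairs with JUN, and its difference was the largest in this list. Fos, the founding member, had 711, 550 and 527 FPKM in IRI2h and 2.28, 1.07 and 0.637 FPKM in SHAM4h, a log2 difference of 8.86 (SE 0.79, limma adjusted p = 1.15e-10). Atf3, a stress-induced factor of the same leucine zipper class, had 431, 216 and 426 FPKM in IRI2h, against 2.35, 1.51 and 1.62 in SHAM4h. For all 3 genes the injured and sham kidneys were far apart, and IRI2h-R2 was the lowest injured kidney for Fosb and Atf3.

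The JUN partners started from a higher sham level. Jun had 620, 563 and 597 FPKM in IRI2h and 14.8, 17.2 and 16.3 in SHAM4h (log2 difference 5.20, SE 0.30). Junb had 294, 203 and 284 FPKM in IRI2h, against 17.9, 16.4 and 17.2 in SHAM4h (3.89, SE 0.40). Jund, the member that resting cells also make, had 241, 221 and 369 FPKM in IRI2h and 44.9, 33.8 and 37.4 in SHAM4h (2.81, SE 0.19). Fosl1, which encodes FRA-1 and is known as a later AP-1 gene, was still low at 3.13, 1.19 and 4.85 FPKM in IRI2h, against 0.537, 0.848 and 0.358 in SHAM4h (2.07, SE 0.51). Injured and sham kidneys did not overlap for any of these, and among the 3 JUN genes the change was larger where the sham level was lower.

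**Figure D2:**
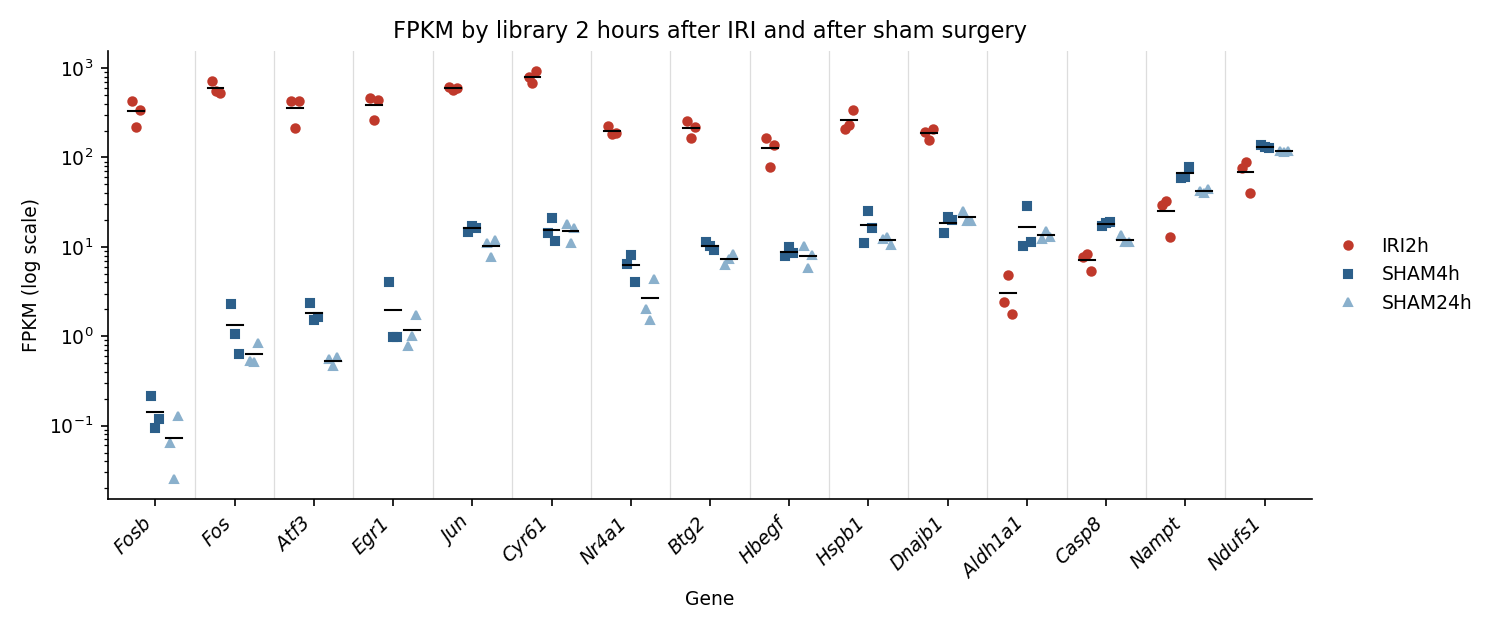
FPKM (log scale) of each IRI2h kidney (red circles), SHAM4h kidney (dark blue squares) and SHAM24h kidney (light blue triangles) for the genes on the x axis, with group means as lines. Fosb lies between 222 and 432 FPKM in IRI2h and between 0.0934 and 0.213 in SHAM4h, while Aldh1a1, Casp8, Nampt and Ndufs1, at the right, lie lower in IRI2h than in SHAM4h.

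The zinc finger factors of the EGR family and the orphan nuclear receptors of the NR4A family changed with AP-1. Of 8 tested members, 6 were higher and 1 lower, with a median of 4.21, and all 7 calls held in the 3 alternatives. Egr1 had 464, 261 and 445 FPKM in IRI2h, against 4.00, 0.981 and 0.975 in SHAM4h (log2 difference 7.81, SE 0.84, limma adjusted p = 8.19e-09). Nr4a1, also known as NUR77, had 224, 184 and 189 FPKM in IRI2h and 6.51, 8.15 and 4.01 in SHAM4h (5.03, SE 0.69). SHAM4h-R1 stood above the other sham kidneys for Egr1 and Fos. The other members were expressed at a much lower level: Egr2 averaged 4.80 ± 1.71 FPKM in IRI2h and 0.106 ± 0.0727 in SHAM4h (SD, n = 3 each), Egr3 2.32 ± 0.815 and 0.0521 ± 0.0333, Nr4a3 6.55 ± 1.44 and 0.216 ± 0.132, and Nr4a2 2.02 ± 0.396 and 0.211 ± 0.00488. Egr4 lay below the filter, at 0.363, 0.102 and 0.345 FPKM in IRI2h and listed at 0 in SHAM4h. The one lower member was Nab1, a corepressor that binds EGR proteins, with 11.6, 13.05 and 5.57 FPKM in IRI2h, against 19.2, 19.3 and 17.7 in SHAM4h (-0.98, SE 0.22).

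Of 24 further immediate early genes tested, 19 were higher and 0 lower, with a median of 1.64, and 16 held in the 3 alternatives. Cyr61, a secreted matrix protein that binds integrins, had 797, 687 and 925 FPKM in IRI2h, against 14.3, 20.9 and 11.5 in SHAM4h (log2 difference 5.71, SE 0.52, limma adjusted p = 1.76e-10). In FPKM it was the highest of the immediate early genes named here. Btg2, whose promoter is printed above, had 254, 164 and 219 FPKM in IRI2h and 11.2, 10.3 and 9.26 in SHAM4h (4.34, SE 0.39). Ier2 averaged 215 ± 56.0 FPKM in IRI2h and 11.0 ± 0.342 in SHAM4h. The transcription factor gene Csrnp1 averaged 72.4 ± 24.5 and 5.53 ± 1.42, Arc, known from synapses, 28.9 ± 12.5 and 1.58 ± 0.549, and Phlda1 9.45 ± 2.25 and 0.728 ± 0.081 FPKM. Npas4, the neuronal immediate early factor, stayed below the filter at 0.0064 to 0.0599 FPKM in IRI2h.

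Krüppel-like factors were split. Of 14 tested, 5 were higher (Klf6, Klf4, Klf16, Klf2 and Klf11) and 0 lower, against 22.1% and 17.9% of all genes, with a median of 0.25. Klf6, a factor induced by injury in many epithelia, had 175, 119.5 and 98.7 FPKM in IRI2h, against 17.7, 12.3 and 16.1 in SHAM4h (log2 difference 3.06, SE 0.30). Klf4, which restrains proliferation, had 52.7, 26.9 and 24.8 FPKM in IRI2h and 4.42, 7.38 and 5.99 in SHAM4h (2.48, SE 0.32). Klf2, a flow-responsive factor of endothelium, averaged 43.9 ± 4.09 and 22.6 ± 4.77 FPKM, and its call was lost with the GC correction (0.49). Klf6, Klf4 and Klf16 held in the 3 alternatives.

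Genes that turn MAP kinases off were higher together. Of 19 tested phosphatases, SPRY and SPRED genes, 12 were higher and 1 lower, with a median of 1.26, and 9 of the higher ones held in the 3 alternatives. Dusp1 had 304, 285 and 262 FPKM in IRI2h, against 43.0, 63.3 and 54.0 in SHAM4h (log2 difference 2.42, SE 0.28). Dusp8 had 12.1, 9.45 and 27.2 FPKM in IRI2h and 2.78, 1.49 and 1.56 in SHAM4h (2.90, SE 0.35), with IRI2h-R3 the highest. Dusp5 had 14.0, 7.60 and 14.4 FPKM in IRI2h, against 2.02, 3.34 and 2.10 in SHAM4h (2.21, SE 0.41). As with Btg2, the groups did not overlap for these 3 genes, whose promoters are printed above. Dusp10, a JNK and p38 phosphatase, averaged 2.51 ± 0.278 FPKM in IRI2h and 0.400 ± 0.020 in SHAM4h, Dusp14 27.6 ± 9.32 and 6.32 ± 0.531, and Spry4, an inhibitor of growth factor receptor signaling, 8.66 ± 1.72 and 3.12 ± 0.696. Dusp7 was the lower member, with 6.97 ± 0.756 FPKM in IRI2h and 11.8 ± 1.27 in SHAM4h.

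Among factors that shorten the life of messages, tristetraprolin and 4 others were higher. Of 15 tested, 5 were higher and 3 lower, against 22.1% and 17.9% of all genes, with a median of -0.28, and all 5 held in the 3 alternatives (Zfp36, Zfp36l1, Zc3h12a, Tob1 and Tob2). Zfp36 had 362, 259 and 409 FPKM in IRI2h and 35.5, 29.2 and 24.7 in SHAM4h (log2 difference 3.52, SE 0.28, limma adjusted p = 1.83e-11). Zc3h12a, which encodes the endonuclease regnase-1, had 5.06, 4.06 and 6.20 FPKM in IRI2h, against 1.71, 1.23 and 1.42 in SHAM4h (1.73, SE 0.30). Tob1, which recruits the deadenylase complex, averaged 119 ± 28.5 FPKM in IRI2h and 51.8 ± 4.25 in SHAM4h. The 3 lower members, Rc3h1, Rc3h2 and Cnot7, had log2 differences of -0.57, -0.66 and -0.35, and none of them passed without IRI2h-R3, where no member of the list was lower. With the GC correction 7 members were higher and 1 lower, and Cnot7 was higher (0.25).

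The NF-kB list moved little by comparison. Of 18 tested, 5 were higher (Nfkbiz, Rel, Tnfaip3, Rela and, named after its value was seen, Tnip1) and 0 lower, near the 22.1% of all genes, and the median was 0.27. Nfkbiz, a nuclear partner of NF-kB, had 12.7, 11.2 and 9.16 FPKM in IRI2h, against 1.63, 1.35 and 1.59 in SHAM4h (log2 difference 2.77, SE 0.27). Tnfaip3, the deubiquitinase A20 that ends the signal, had 5.37, 4.69 and 4.01 FPKM in IRI2h and 1.61, 1.23 and 2.08 in SHAM4h (1.48, SE 0.30). Nfkbiz, Tnfaip3 and Rel held in the 3 alternatives. Of 14 SOCS and JAK genes tested, Socs3, the brake on STAT3 signaling, had 17.7, 9.05 and 15.8 FPKM in IRI2h and 3.28, 2.66 and 2.41 in SHAM4h (2.26, SE 0.52). Jak2, the kinase upstream, had 5.89, 7.01 and 2.15 FPKM in IRI2h, against 10.4, 9.91 and 10.0 in SHAM4h (-1.16, SE 0.26). Both calls held in the 3 alternatives.

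Cytosolic chaperones formed the second large group. Of 26 tested heat shock proteins and co-chaperones, 15 were higher and 2 lower, with a median of 0.68, and 10 of the higher ones held in the 3 alternatives. Hspb1, the small heat shock protein HSP25, had 209, 231 and 343 FPKM in IRI2h, against 11.0, 25.1 and 16.3 in SHAM4h (log2 difference 3.94, SE 0.40, limma adjusted p = 1.71e-09). Dnajb1, the HSP40 cochaperone and a standard target of HSF1, had 195, 157 and 211 FPKM in IRI2h and 14.3, 21.7 and 19.95 in SHAM4h (3.33, SE 0.27). Bag3, which links HSP70 to autophagy, had 69.1, 59.5 and 117 FPKM in IRI2h and 12.3, 13.2 and 13.4 in SHAM4h (2.58, SE 0.22). For all 3 the groups were well separated.

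Hsph1, the exchange factor HSP105, averaged 98.1 ± 11.1 FPKM in IRI2h and 20.5 ± 4.60 in SHAM4h, and Hsp90ab1, the constitutive HSP90, 876 ± 99.3 and 341 ± 12.4 FPKM. Cryab, alpha-B-crystallin, averaged 160.3 ± 18.6 FPKM in IRI2h and 56.2 ± 8.86 in SHAM4h, but 127 ± 13.6 in SHAM24h, and did not pass against that control (0.33). Of the lower members, Hspa9, the mitochondrial HSP70, had 193, 224 and 105 FPKM in IRI2h, against 324, 319.9 and 308 in SHAM4h (-0.94, SE 0.16), and held in the 3 alternatives. The other was Dnajb6 (-0.47). Hspa1a and Hspa1b, a near-identical pair whose shared reads counting can lose, were listed at 0 in all 6 kidneys.

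Counts for chaperones of the endoplasmic reticulum depended on the control, as did those of all genes. Of 18 tested, 9 were higher and 1 lower than in SHAM4h, with a median of 0.44. Against SHAM24h 3 were higher and 4 lower, where 6.61% and 23.4% of all genes were. No call held in the 3 alternatives. Hspa5, the master chaperone BiP, had 328, 261 and 187 FPKM in IRI2h and 149, 108 and 142 in SHAM4h (log2 difference 0.93, SE 0.25), and its difference from SHAM24h was 0.48, which did not pass.

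In the ATF4 arm of the integrated stress response, 7 of 23 tested genes were higher and 3 lower, with a median of 0.37. Over all genes, 22.1% were higher and 17.9% lower. Ppp1r15a had 89.6, 68.9 and 87.7 FPKM in IRI2h, against 8.68, 7.68 and 7.67 in SHAM4h (log2 difference 3.33, SE 0.19, limma adjusted p = 1.54e-15). Ddit3, which encodes CHOP, had 46.7, 24.8 and 42.7 FPKM in IRI2h and 7.56, 7.53 and 8.59 in SHAM4h (2.21, SE 0.27). Gdf15, a secreted stress hormone, had 91.5, 74.5 and 162 FPKM in IRI2h and 7.09, 16.5 and 9.96 in SHAM4h (3.28, SE 0.47). These 3 genes and Slc3a2, with 147 ± 38.6 FPKM in IRI2h and 78.9 ± 9.68 in SHAM4h, held in the 3 alternatives. Lower members included Psat1, of serine synthesis, which averaged 25.9 ± 5.28 FPKM in IRI2h and 40.5 ± 9.86 in SHAM4h (-0.64). Sesn2, a sensor of leucine, was also lower, at 24.1 ± 4.33 and 47.4 ± 3.68 (-0.99). Neither passed against SHAM24h, in which Sesn2 averaged 19.1 ± 3.31 FPKM.

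Of 18 tested p53 targets, 7 were higher and 4 lower, against 22.1% and 17.9% of all genes, with a median of 0.12. The GADD45 genes, which bind MAP kinase kinase kinases and DNA repair proteins, were among the higher ones. Gadd45g averaged 309 ± 51.4 FPKM in IRI2h and 72.4 ± 18.6 in SHAM4h, Gadd45a 48.9 ± 12.3 and 12.3 ± 0.871, and Gadd45b 34.6 ± 5.17 and 6.92 ± 1.36. Pmaip1, the BH3-only protein NOXA, had 26.5, 24.8 and 17.9 FPKM in IRI2h, against 3.39, 3.77 and 4.01 in SHAM4h (log2 difference 2.58, SE 0.21). These 4 held in the 3 alternatives. Cdkn1a, the cell cycle inhibitor p21, had 26.9, 24.5 and 39.0 FPKM in IRI2h and 8.83, 13.1 and 10.4 in SHAM4h (1.47, SE 0.52), and its call was lost with the GC correction and without IRI2h-R3. Mdm2, the ligase for p53 and itself a standard target, was lower, with 15.7 ± 2.77 FPKM in IRI2h and 19.7 ± 0.596 in SHAM4h (-0.35), and did not pass in any of the 3 alternatives.

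Of 18 BCL2 family and caspase genes tested, 2 were higher and 3 lower, against 22.1% and 17.9% of all genes. With the GC correction 1 was higher and 7 lower, against 14.6% and 17.4%. Mcl1, a short-lived inhibitor of apoptosis, had 115, 93.3 and 85.7 FPKM in IRI2h and 53.7, 65.5 and 62.3 in SHAM4h (log2 difference 0.69, SE 0.17). Casp8, the initiator caspase of death receptors, had 7.74, 8.34 and 5.30 FPKM in IRI2h, against 17.1, 18.6 and 18.9 in SHAM4h (-1.37, SE 0.13, limma adjusted p = 6.53e-10). Both held in the 3 alternatives. The death receptor gene Fas had 5.33, 6.03 and 3.64 FPKM in IRI2h and 14.2, 11.2 and 14.1 in SHAM4h (-1.40, SE 0.21), but averaged 5.56 ± 0.682 in SHAM24h.

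Growth regulators of the cell cycle were led by Myc, which had 27.8, 17.8 and 32.2 FPKM in IRI2h, against 3.67, 4.75 and 5.64 in SHAM4h (log2 difference 2.42, SE 0.39). Of 21 tested MYC network, cyclin and CDK inhibitor genes, 5 were higher (Myc, Mycn, Mnt, Mxd1 and, named after its value was seen, Ccnd3) and 1 lower (Max, -0.34). The higher count was near the 22.1% of all genes, and 17.9% of all genes were lower. Mycn averaged 2.80 ± 0.394 FPKM in IRI2h and 0.873 ± 0.140 in SHAM4h, and the antagonist Mxd1 6.63 ± 0.259 and 3.37 ± 0.276, both held in the 3 alternatives. Hbegf, an EGF receptor ligand shed from epithelial cells, had 166, 79.2 and 136 FPKM in IRI2h and 7.88, 9.87 and 8.64 in SHAM4h (3.78, SE 0.27, limma adjusted p = 8.64e-13). It was the 1 ligand of 11 EGF family and receptor genes tested that was higher and held in the 3 alternatives. Areg, another ligand, had 0.386, 0.146 and 0.518 FPKM in IRI2h, against 0.0766, 0 and 0.153 in SHAM4h, which passed (1.35, SE 0.51) although the groups overlapped, but not without IRI2h-R3. Egf itself, made by the distal nephron, averaged 396 ± 77.9 and 274 ± 56.2 FPKM (0.53, SE 0.31), which did not pass.

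Of 12 CXC chemokine family genes tested, 6 were higher and 0 lower, with a median of 0.85. Higher members numbered 4 with the GC correction, 3 without IRI2h-R3 and 4 against SHAM24h, and 2 held (Cxcl1 and Cxcl2). Cxcl1, a neutrophil attractant, had 36.7, 15.6 and 37.4 FPKM in IRI2h, against 2.34, 2.17 and 2.21 in SHAM4h (log2 difference 3.58, SE 0.57). Cxcl2, with the same receptor, had 1.44, 1.53 and 1.49 FPKM in IRI2h and 0.0653, 0.125 and 0.213 in SHAM4h (2.81, SE 0.59). Of 16 CC chemokines, 3 were higher (Ccl4, Ccl3 and Ccl7) and 1 lower (Ccl28), against 22.1% and 17.9% of all genes. With SHAM24h as the control 4 were higher and 0 lower, against 6.61% and 23.4% of all genes. Ccl4, a macrophage inflammatory protein, had 1.69, 2.65 and 1.88 FPKM in IRI2h, against 0.139, 0.133 and 0.433 in SHAM4h (2.79, SE 0.54). Ccl2, the monocyte attractant, had 1.36, 0.656 and 1.91 FPKM in IRI2h and 0.209, 0.940 and 0.409 in SHAM4h, with overlap, and did not pass.

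Il6 had 0.445, 0.181 and 0.812 FPKM in IRI2h and 0, 0.0202 and 0.0751 in SHAM4h (log2 difference 2.02, SE 0.54), and Lif, of the same family, had 0.593, 0.411 and 0.945 FPKM in IRI2h, against 0.0568, 0.0544 and 0.0707 in SHAM4h (2.16, SE 0.60). Both held in the 3 alternatives while still below 1 FPKM. Osmr, a receptor chain of the family, was lower, with 1.33, 1.55 and 0.892 FPKM in IRI2h and 3.79, 3.17 and 2.40 in SHAM4h (-1.25, SE 0.41), and was lost without IRI2h-R3 and against SHAM24h. Tnf stayed below the filter at no more than 0.0581 FPKM in any of the 6 kidneys.

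No marker of white blood cells passed the test against SHAM4h. The 13 macrophage markers, 11 tested neutrophil markers and 10 tested lymphocyte markers gave 0 calls in either direction with limma, against 40.0% of all genes, and at an unadjusted p under 0.05 2 neutrophil markers were higher and 1 macrophage marker lower. Summed macrophage markers were 74.9, 73.8 and 97.7 FPKM in IRI2h, against 62.1, 89.4 and 184 in SHAM4h. Summed neutrophil markers were 21.0, 13.4 and 21.9 FPKM in IRI2h and 6.67, 38.9 and 10.1 in SHAM4h, with 3 of 16 listed at 0 in all 6 kidneys. SHAM4h-R3 was the highest for macrophage markers and SHAM4h-R2 for neutrophil markers. Against SHAM24h, 2 neutrophil markers and 1 macrophage marker were higher and none lower, with medians of 1.12 and 0.25. Of 16 tested interferon-stimulated genes, 1 was higher and 6 lower, but 0 were lower without SHAM4h-R3 and 0 without IRI2h-R3. Red cell markers, in contrast, summed to 148, 398 and 561 FPKM in IRI2h and 62.7, 90.0 and 103 in SHAM4h, without overlap, and to 34.4 to 47.3 in SHAM24h. Of 8 tested red cell genes, 2 passed (Hba-a2 and Slc25a37, named after their values were seen), and hemoglobin genes are near-identical copies. Neither call held in the 3 alternatives. Higher members numbered 3 with the GC correction, 1 without IRI2h-R3 and 5 against SHAM24h, where Slc25a37 turned to -0.35. The part of blood left in the tissue in other results was not tested.

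Among cytoskeletal genes and targets of serum response factor, the count depended on the correction for GC content. Of 22 tested, 12 were higher and 1 lower, with a median of 0.73. Higher members numbered 5 with the GC correction, 8 without IRI2h-R3 and 9 against SHAM24h, and 5 held in the 3 alternatives (Rhob, Rnd1, Rnd3, Actb and Actg1). Rhob, an endosomal small GTPase, had 244, 225 and 274 FPKM in IRI2h, against 47.7, 59.0 and 47.3 in SHAM4h (log2 difference 2.27, SE 0.25). Rnd3, which loosens actin fibers, had 29.6, 22.03 and 16.2 FPKM in IRI2h and 6.40, 4.88 and 5.26 in SHAM4h (1.98, SE 0.24). Actb had 493, 416 and 547 FPKM in IRI2h and 177, 182 and 167 in SHAM4h (1.46, SE 0.23), so that beta-actin, often used as a reference gene, differed between these groups. Thbs1, the matrix protein thrombospondin, averaged 30.3 ± 8.44 FPKM in IRI2h and 8.004 ± 1.53 in SHAM4h (1.89, SE 0.39), and held in the 3 alternatives.

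Of 11 EGF family and receptor genes, 3 were higher and 2 lower, near the shares of all genes, and other growth factor pathways had more higher than lower members against SHAM4h. Of 25 tested genes of the TGF-beta, activin and BMP pathway, 13 were higher and 1 lower, with a median of 0.63. Against SHAM24h 8 were higher and 2 lower, and with the GC correction 10 and 3, and Bmp2, Smad7 and Tgif1 were among the 4 higher ones that held in the 3 alternatives (Bmp2 and Tgif1 named after their values were seen). Smad7, the inhibitory SMAD, had 16.2, 11.6 and 13.6 FPKM in IRI2h, against 4.79, 6.97 and 6.73 in SHAM4h (log2 difference 1.15, SE 0.19). Bmp4, the lower member, had 16.8, 17.2 and 11.7 FPKM in IRI2h and 22.4, 25.8 and 20.7 in SHAM4h (-0.61, SE 0.15), and also held. Of 12 Notch pathway genes, 6 were higher and 1 lower than in SHAM4h, but 1 higher and 1 lower than in SHAM24h, and none held. Over all genes, 6.61% were higher and 23.4% lower than in SHAM24h, which also applies to the Wnt counts below. Dll1, a Notch ligand, averaged 4.41 ± 0.667 FPKM in IRI2h and 1.86 ± 0.271 in SHAM4h, while SHAM24h kidneys averaged 3.29 ± 0.0491. Of 17 Wnt pathway genes, 6 were higher and 0 lower than in SHAM4h, but 2 higher and 3 lower than in SHAM24h, and only Nkd1, a feedback inhibitor, held, with 1.61 ± 0.145 FPKM in IRI2h and 0.541 ± 0.101 in SHAM4h (1.42, SE 0.26).

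Endothelial genes did not move as one. Of 22 tested, 9 were higher and 2 lower, against 22.1% and 17.9% of all genes, with a median of 0.42. The related factors Sox7 and Sox18 went opposite ways: Sox7 had 2.66, 2.40 and 2.59 FPKM in IRI2h, against 0.894, 1.12 and 0.900 in SHAM4h (log2 difference 1.31, SE 0.17). Sox18 had 4.68, 6.17 and 6.84 FPKM in IRI2h and 10.3, 9.75 and 11.9 in SHAM4h (-0.85, SE 0.23). Both, and the receptor gene Tie1 (0.91), held in the 3 alternatives. Of 19 vasoactive and prostanoid genes, 7 were higher and 2 lower, against the same shares of all genes. Ptges, the inducible prostaglandin E synthase, averaged 10.7 ± 1.35 FPKM in IRI2h and 4.49 ± 0.264 in SHAM4h (1.23, SE 0.23), and Ptger4, a receptor for its product, 2.07 ± 0.0542 and 0.870 ± 0.118 (1.17, SE 0.28). Both held in the 3 alternatives.

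Of 18 clock genes tested, 5 were higher and 5 lower, against 22.1% and 17.9% of all genes, with a median of 0.05, and the 5 higher ones held in the 3 alternatives while none of the lower ones did. Nr1d1, the repressor REV-ERB-alpha, had 103, 90.1 and 115 FPKM in IRI2h, against 21.8, 10.8 and 13.6 in SHAM4h (log2 difference 2.78, SE 0.45). Per1, which is also an immediate early gene and was counted with the glucocorticoid-induced genes, had 69.1, 58.9 and 89.5 FPKM in IRI2h and 23.1, 14.9 and 16.1 in SHAM4h (2.01, SE 0.37). Bhlhe40 averaged 104 ± 32.5 FPKM in IRI2h and 39.9 ± 7.32 in SHAM4h, Bhlhe41 3.80 ± 0.537 and 1.49 ± 0.300, Arntl, which encodes BMAL1, 3.40 ± 0.816 and 1.01 ± 0.0801, and Npas2 1.69 ± 0.440 and 0.554 ± 0.220. Cry1, a repressor of the core clock, had 1.60, 1.07 and 2.03 FPKM in IRI2h and 4.60, 5.88 and 6.32 in SHAM4h (-1.80, SE 0.32), but 1.39 ± 0.219 in SHAM24h. The time of day at collection was not given in the sources used here.

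Genes of fatty acid oxidation were lower as a group. Of 23 tested genes of fatty acid oxidation and ketogenesis, 0 were higher and 16 lower, against 17.9% of all genes, with a median of -0.72. Lower members numbered 16 with the GC correction, 11 without IRI2h-R3 and 13 against SHAM24h, and 6 held in all of them, among them Fabp1, Acot1 and, named after their values were seen, Cyp4a10, Acadm and Cpt2.

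Fabp1, which carries fatty acids in the cytosol, had 0.725, 0.436 and 0.606 FPKM in IRI2h, against 1.498, 4.74 and 1.63 in SHAM4h (log2 difference -1.81, SE 0.51). Acot1, a fatty acyl-CoA thioesterase, had 39.7, 42.4 and 52.996 FPKM in IRI2h and 66.4, 166 and 145 in SHAM4h (-1.39, SE 0.39). Acadm, the medium-chain dehydrogenase, averaged 301 ± 97.2 FPKM in IRI2h and 683 ± 26.3 in SHAM4h, and 820.0 ± 94.9 in SHAM24h. SHAM4h-R1 was the lowest sham kidney for Fabp1 and Acot1. Ppara, the nuclear receptor that drives this program, had 21.7, 18.8 and 13.2 FPKM in IRI2h, against 52.7, 39.9 and 36.3 in SHAM4h (-1.27, SE 0.49), and its call was lost without IRI2h-R3 and against SHAM24h (-0.29). Cyp4a14, another target of this receptor, had 3.94, 9.13 and 16.4 FPKM in IRI2h and 9.70, 86.2 and 52.96 in SHAM4h, which overlapped and did not pass, while SHAM24h kidneys averaged 466 ± 75.0.

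Nuclear genes of the respiratory chain changed less. Of 25 tested, 2 were higher (Uqcrc1 and Cox5a) and 7 lower, against 22.1% and 17.9% of all genes, with a median of -0.07. Ndufs1, the largest subunit of complex I, had 76.1, 88.8 and 39.8 FPKM in IRI2h and 137, 132 and 127 in SHAM4h (log2 difference -1.03, SE 0.16). Ndufs1, Sdha of complex II (-0.61) and Uqcrc2 of complex III (-0.72) held in the 3 alternatives. Nampt, the rate-limiting enzyme of NAD salvage, had 29.7, 32.7 and 13.03 FPKM in IRI2h, against 59.5, 60.9 and 79.2 in SHAM4h (-1.50, SE 0.23), and was the 1 gene of 17 tested for NAD synthesis and use that held. In these genes IRI2h-R3 was the lowest kidney.

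Ribosome biogenesis genes were more often lower than higher. Of 24 tested, 6 were higher, near the share of all genes, and 11 lower, against 17.9% of all genes, with a median of -0.28. With the GC correction 1 was higher and 11 lower, against SHAM24h 0 and 10, and without IRI2h-R3 2 and 6. Only lower genes held, 5 in all (Ncl, Wdr43, Gnl3, Npm1 and, named after its value was seen, Wdr75). Ncl, nucleolin, had 18.4, 21.5 and 6.00 FPKM in IRI2h and 33.6, 31.4 and 30.9 in SHAM4h (log2 difference -1.25, SE 0.25). Gnl3, nucleostemin, had 10.9, 10.4 and 7.45 FPKM in IRI2h, against 17.3, 18.1 and 19.1 in SHAM4h (-0.93, SE 0.16). The higher ones included the RNA polymerase I subunits Polr1a (0.31) and Polr1b (0.55), and none of the 6 held. Polr1b turned to -0.0769 against SHAM24h and Polr1a to -0.0916 where the GC correction was made without IRI2h-R3.

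Other lists had few calls that held. Over all genes, 22.1% were higher and 17.9% lower than in SHAM4h. Of 23 tested genes of cholesterol synthesis and uptake, 8 were higher and 2 lower, and 2 held: Srebf2, the factor that drives the pathway, with 34.6 ± 7.86 FPKM in IRI2h and 17.7 ± 2.60 in SHAM4h (log2 difference 0.95, SE 0.13), and Insig2, which retains it in the endoplasmic reticulum, with 14.0 ± 3.52 and 21.5 ± 1.36 FPKM (-0.65, SE 0.11). Of 22 NRF2 targets, 1 was higher and 3 lower. The higher one, Osgin1, an oxidative stress-induced growth inhibitor, had 156, 88.3 and 181 FPKM in IRI2h, against 27.0, 58.0 and 50.7 in SHAM4h (1.65, SE 0.32), and held. Glycolysis genes had 5 higher and 1 lower of 15, but 1 higher and 2 lower with the GC correction and 1 higher and 0 lower against SHAM24h, with none held. Of 15 housekeeping genes, 3 were higher and 6 lower, and Actb (higher) and Sdha (lower) were among those that held.

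**Figure D3:**
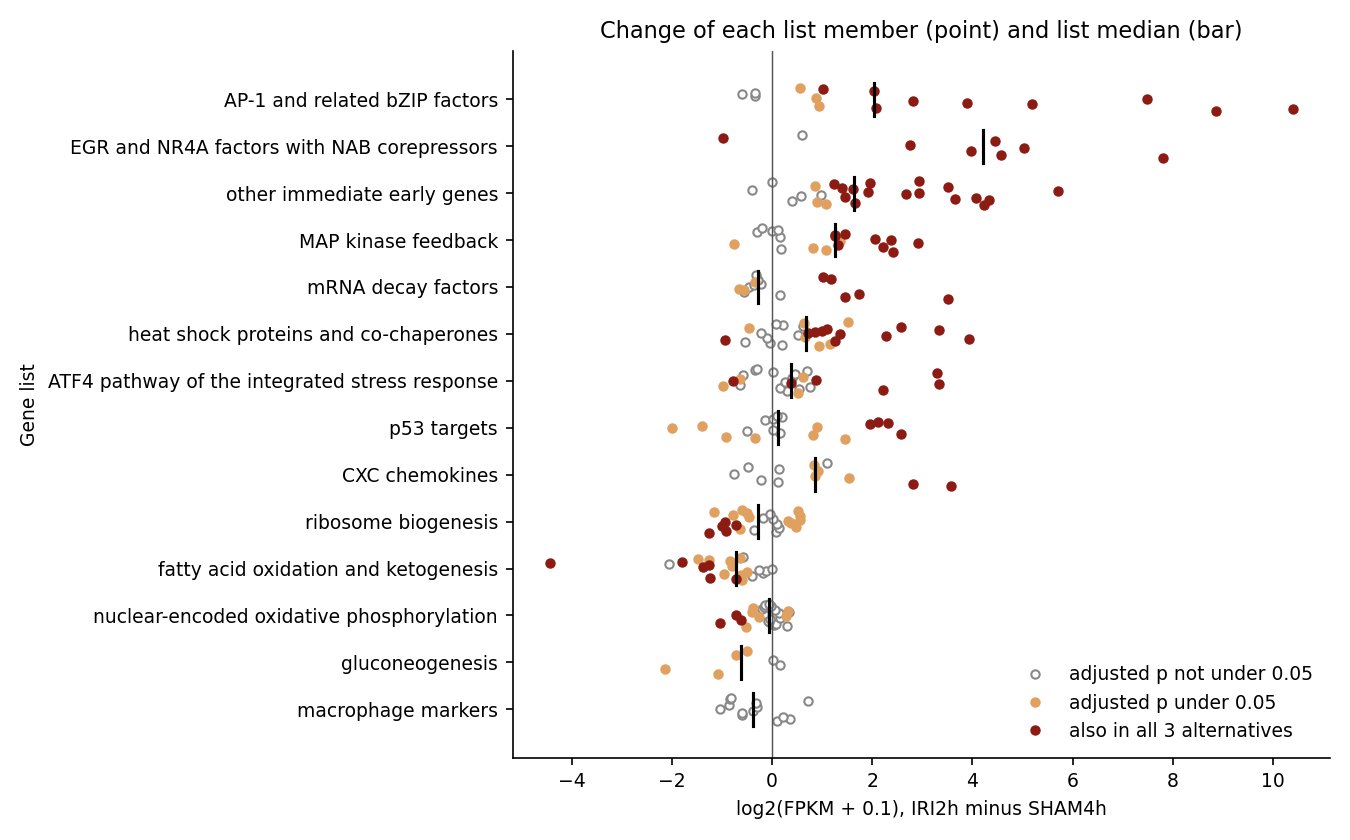
Difference between IRI2h and SHAM4h, in log2(FPKM + 0.1), of each tested member (points) of 14 gene groups, with the group median (black bars). Open points did not pass, filled points passed against SHAM4h and dark red points also passed in the 3 alternatives. The medians of EGR and NR4A factors (4.21) and AP-1 factors (2.03) lie farthest to the right and that of fatty acid oxidation genes (-0.72) farthest to the left.

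Outside these lists, the largest decreases included enzymes of retinoid and drug metabolism. Cyp2b10, a cytochrome P450, had 0.549, 0.491 and 0.237 FPKM in IRI2h, against 5.24, 9.80 and 4.87 in SHAM4h (log2 difference -3.66, SE 0.66), but 1.04 ± 0.0655 in SHAM24h. Aldh1a1, which oxidizes retinal, had 2.44, 4.79 and 1.79 FPKM in IRI2h and 10.1, 28.9 and 11.3 in SHAM4h (-2.39, SE 0.39), with 13.4 ± 1.45 in SHAM24h. Aldh1a7, its close paralog, had 3.63, 7.61 and 2.85 FPKM in IRI2h and 14.9, 80.1 and 23.6 in SHAM4h (-2.80, SE 0.45), with 24.6 ± 3.91 in SHAM24h. Both held in the 3 alternatives, and shared reads make the split between the 2 genes uncertain. SHAM4h-R2 was the highest sham kidney for the pair. Etnppl, an ethanolamine phosphate lyase, also held, with 2.43 ± 0.936 FPKM in IRI2h and 12.4 ± 1.97 in SHAM4h (-2.37, SE 0.39).

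Other large decreases depended on the sham time. G6pc, the last enzyme of glucose production, had 202, 289 and 188 FPKM in IRI2h, against 843, 1080 and 1027 in SHAM4h (log2 difference -2.14, SE 0.21), but 184 ± 10.9 in SHAM24h. All 4 lower genes of 6 tested for gluconeogenesis (among them G6pc, Pck1 and, named after its value was seen, Slc37a4) did not pass against SHAM24h. Angptl4, an inhibitor of lipoprotein lipase, had 11.7, 17.3 and 18.4 FPKM in IRI2h and 75.9, 79.3 and 90.3 in SHAM4h (-2.39, SE 0.42), while against SHAM24h, at 7.39 ± 3.07, it was higher (1.14). The gene 8430408G22Rik had 19.3, 25.3 and 22.6 FPKM in IRI2h, against 260.3, 169 and 112 in SHAM4h (-2.93, SE 0.60). It was also higher than SHAM24h, at 2.86 ± 0.740 (2.95). Both calls thus turned their direction with the control.

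Metallothionein and other glucocorticoid-induced genes as a list were called at few members against SHAM4h and at most members against SHAM24h. Of 12 tested metallothionein and glucocorticoid-induced genes, 1 was higher (Per1) and 2 lower (Angptl4 and Fkbp5) than in SHAM4h, with a median of -0.05, while 9 were higher and 0 lower than in SHAM24h, with a median of 1.76. Fkbp5, a chaperone of the receptor, averaged 15.9 ± 4.46 FPKM in IRI2h, 49.96 ± 4.53 in SHAM4h and 12.5 ± 1.60 in SHAM24h. Sgk1, a kinase of sodium transport, averaged 151 ± 20.02 FPKM in IRI2h, 116 ± 29.5 in SHAM4h and 27.9 ± 2.48 in SHAM24h. Pdk4, which blocks pyruvate dehydrogenase, averaged 77.6 ± 11.5, 161 ± 57.6 and 7.58 ± 2.79 FPKM in the same 3 groups. For Sgk1 and Pdk4 the injured kidneys and the 4-hour shams did not pass the test of their difference.

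Counts for genes of differentiated nephron segments also depended on the sham time. Of 16 collecting duct genes tested, 8 were higher and 0 lower than in SHAM4h, against 22.1% and 17.9% of all genes, and 0 were higher and 4 lower than in SHAM24h, against 6.61% and 23.4%. Of 19 genes of the thick ascending limb and distal convoluted tubule, 6 were higher and 0 lower than in SHAM4h, and 0 higher and 2 lower than in SHAM24h. Of 28 proximal tubule transport genes, 6 were higher and 0 lower than in SHAM4h, near the share of all genes on the higher side, and 2 higher and 2 lower than in SHAM24h. Their summed level was 52620, 44740 and 49200 FPKM in IRI2h, against 70130, 74850 and 66880 in SHAM4h, without overlap, and 45650, 42710 and 44850 in SHAM24h. The sum is weighted to the most abundant members, while the median log2 difference of the members from SHAM4h was 0.29. Cldn19, a claudin of the thick limb, had 8.23, 8.17 and 9.25 FPKM in IRI2h, against 2.08, 1.51 and 1.83 in SHAM4h (log2 difference 2.19, SE 0.24), and 10.5 ± 1.11 in SHAM24h. Slc14a2, the urea transporter of the inner medulla, averaged 21.2 ± 1.19 FPKM in IRI2h, 5.67 ± 1.36 in SHAM4h and 22.7 ± 6.05 in SHAM24h. Vegfa, a hypoxia-inducible growth factor for endothelium, had 81.7, 73.9 and 72.5 FPKM in IRI2h and 40.4, 39.5 and 37.4 in SHAM4h (0.96, SE 0.12), but 97.1 ± 2.48 in SHAM24h, against which it was lower (-0.35). Of the 27 tested hypoxia-inducible genes, 5 were higher (Slc2a1, Vegfa and, named after their values were seen, P4ha1, P4ha2 and Epas1) and 7 lower, and only Slc2a1, the glucose transporter GLUT1, held in the 3 alternatives, with 37.3, 29.4 and 45.3 FPKM in IRI2h and 11.9, 12.5 and 12.3 in SHAM4h (1.58, SE 0.24).

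**Figure D4:**
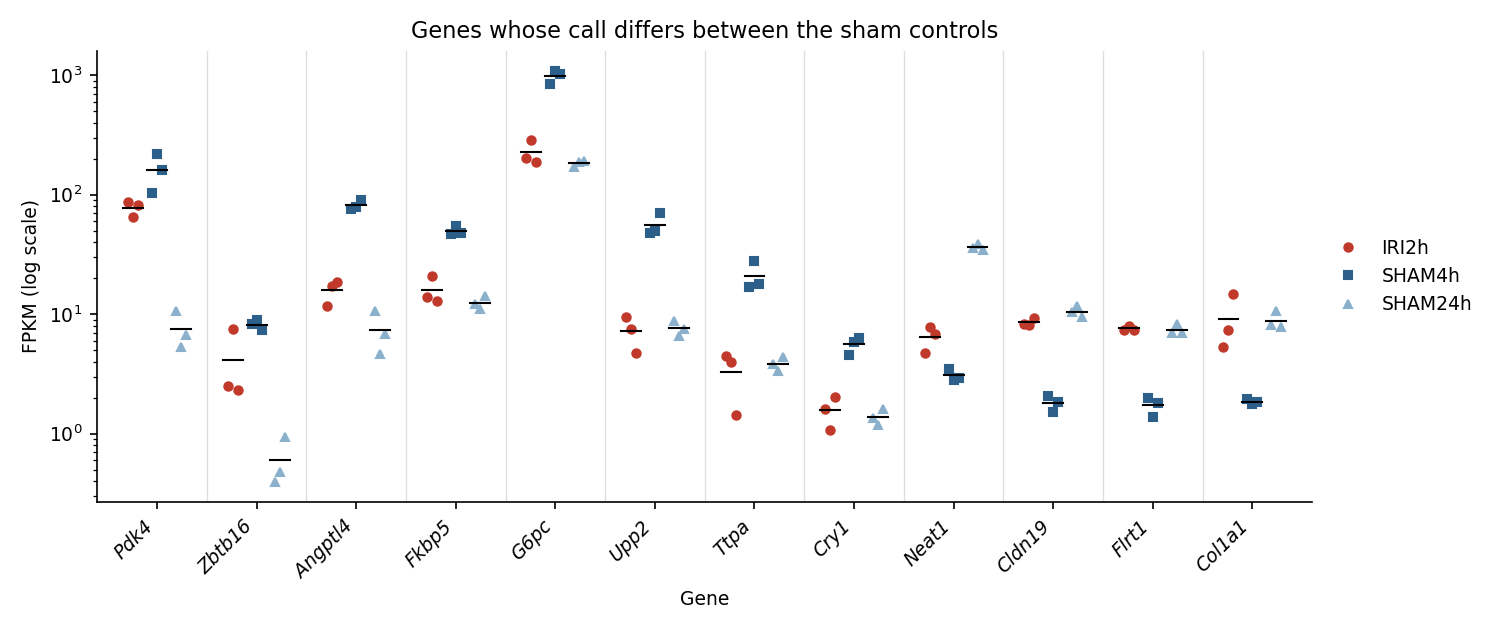
FPKM (log scale) of each kidney for genes whose call differs between the sham controls, with IRI2h (red circles), SHAM4h (dark blue squares) and SHAM24h (light blue triangles), and group means as lines. G6pc, Upp2, Ttpa and Cry1 lie close together in IRI2h and SHAM24h and higher in SHAM4h, while Cldn19, Flrt1 and Col1a1 lie lower in SHAM4h.

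Most markers of tubular injury did not pass. Of 20 tested tubule injury genes, 5 were higher (Krt8, Krt18, Sox9, Cdh6 and, named after its value was seen, Timp2) and 0 lower, near the share of all genes, with a median of 0.44. Krt8, a simple epithelial keratin, had 244, 170.2 and 236 FPKM in IRI2h, against 91.0, 84.2 and 104 in SHAM4h (log2 difference 1.20, SE 0.21), and it held in the 3 alternatives with Krt18. Sox9, a factor of tubular repair, had 0.709, 0.374 and 1.02 FPKM in IRI2h and 0.105, 0.275 and 0.128 in SHAM4h (1.54, SE 0.48), and was lost without IRI2h-R3 and against SHAM24h. Havcr1 (KIM-1), Lcn2 (NGAL) and Krt20 are named after their values were seen. Havcr1 averaged 0.466 ± 0.0446 FPKM in IRI2h and 1.01 ± 0.467 in SHAM4h, Lcn2 1.63 ± 0.196 and 3.09 ± 1.66, and Krt20 0.684 ± 0.302 and 0.363 ± 0.235, none of which passed. At 24 hours after IRI the same genes averaged 1106 ± 156, 777 ± 331 and 167 ± 38.4 FPKM.

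Counts for factors that set tubule identity depended on the control, as did those of all genes. Of 30 tested, 12 were higher and 3 lower (Nr1h4, Foxi1 and Tfcp2l1) than in SHAM4h, against 22.1% and 17.9% of all genes. Against SHAM24h 4 were higher and 6 lower, where 6.61% and 23.4% of all genes were. Osr2, a zinc finger factor, had 36.2, 32.6 and 33.2 FPKM in IRI2h, against 6.15, 5.03 and 5.15 in SHAM4h (log2 difference 2.62, SE 0.22, limma adjusted p = 3.26e-11), and held in the 3 alternatives. Pax8, a factor of the whole nephron, had 31.7, 31.2 and 35.4 FPKM in IRI2h and 17.4, 13.01 and 12.9 in SHAM4h (1.19, SE 0.15) and also held. Foxi1, the master factor of intercalated cells, was the lower member that held, with 6.47 ± 0.608 FPKM in IRI2h and 12.4 ± 3.19 in SHAM4h (-0.90, SE 0.21).

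Among noncoding RNAs, Malat1, the abundant RNA of nuclear speckles, had 68.1, 118 and 44.6 FPKM in IRI2h, against 41.5, 15.0 and 17.8 in SHAM4h (log2 difference 1.67, SE 0.43), with wide spread in both groups. Neat1, the scaffold of paraspeckles, had 4.75, 7.89 and 6.81 FPKM in IRI2h and 3.47, 2.82 and 2.92 in SHAM4h (1.03, SE 0.32), but 36.3 ± 2.44 in SHAM24h, so that its direction turned with the control. Gm15564 had 50.4, 28.4 and 41.7 FPKM in IRI2h and 7.88, 10.7 and 7.76 in SHAM4h (2.16, SE 0.46), with 2.22 ± 0.950 in SHAM24h. Gm17024 averaged 4.52 ± 1.95 FPKM in IRI2h and 0.464 ± 0.326 in SHAM4h (3.08, SE 0.52). Both Gm genes held in the 3 alternatives. The libraries carry no strand, so reads of overlapping genes on the other strand could not be separated. Of the 128 genes at least 4-fold higher, 97 were protein coding, 10 were annotated as miRNA, 8 as snoRNA and 4 as snRNA genes, classes that poly(A) libraries do not measure as mature RNA.

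The coding genes that were at least 4-fold higher were short. Their median span was 7.21 kb with 4 exons, against 23.5 kb and 10 exons over the protein-coding genes tested. For the 77 that held in the 3 alternatives the median span was 6.71 kb and the median exon GC content 54.5%, against 49.9% over all. The 37 coding genes at least 4-fold lower had a median span of 17.4 kb and 7 exons. The 262 that were at least 2-fold lower and held had a median span of 30.0 kb, 11 exons and 41.6% GC. These sets were chosen by their change and the values are descriptions.

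IRI2h kidneys were next compared with IRI4h kidneys, so that the IRI2h libraries are shared with the comparison above. In IRI2h, 1577 genes were higher (10.6%) and 2047 lower (13.7%) than in IRI4h. Without IRI4h-R1 the counts were 1030 and 1233, and without IRI2h-R3 1031 were lower. The difference between IRI2h and IRI4h correlated with GC content at 0.40 across genes. With the GC correction 1919 genes were higher and 1774 lower, and corrected values of single genes are not reported here. Of the 15 AP-1 genes, 0 were higher and 3 were lower at 2 hours (Fosl1 and, named after their values were seen, Maff and Mafk). Fos averaged 596 ± 100.3 FPKM in IRI2h and 315 ± 85.8 in IRI4h (log2 difference 0.95, limma adjusted p = 0.41), and Atf3 358 ± 123 and 488 ± 117 FPKM (-0.49), which did not pass. Heat shock genes were lower at 2 hours than at 4 hours for 13 of 26 and higher for 0. Hsph1 averaged 98.1 FPKM in IRI2h and 241 in IRI4h (-1.24), a call lost without IRI4h-R2 (-0.95), IRI2h-R1 (-1.22) or IRI2h-R3 (-1.17), and Hspa5 258 and 477 (-0.92), a call lost without IRI2h-R3 (-0.71). Maff was lost without IRI2h-R2 (-1.13), IRI4h-R1 (-1.53) or IRI4h-R2 (-1.48), and Mafk without IRI2h-R2 (-0.45).

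The cytokine genes Il6, Lif and Cxcl2 were lower at 2 hours than at 4 hours. Il6 had 0.479 ± 0.317 FPKM in IRI2h and 9.25 ± 6.48 in IRI4h (log2 difference -3.96, limma adjusted p = 2.5e-06). Lif averaged 0.650 FPKM in IRI2h and 7.17 in IRI4h (-2.96, or -2.25 without IRI4h-R1), Fosl1 3.06 and 23.6 (-2.95), and Cxcl2 1.49 and 8.38 (-2.29). Prrg4, a transmembrane Gla protein, averaged 2.27 FPKM in IRI2h, 18.8 in IRI4h and 5.89 in SHAM4h, so that it lay below both. Osmr behaved likewise, with 1.26 FPKM in IRI2h, 6.31 in IRI4h and 3.12 in SHAM4h. Akap12, a scaffold for protein kinase A, lay between, with 10.6 FPKM in IRI2h, 42.7 in IRI4h and 4.10 in SHAM4h. Summed neutrophil markers were 21.0, 13.4 and 21.9 FPKM in IRI2h and 132, 25.8 and 26.4 in IRI4h, and summed macrophage markers 74.9, 73.8 and 97.7 in IRI2h and 213, 68.2 and 91.5 in IRI4h. IRI4h-R1 thus stood high for both, and the part of white blood cells in these differences was not tested. Ribosome biogenesis genes were lower at 2 hours for 13 of 24, among them Gnl3, with 9.59 FPKM in IRI2h, 27.1 in IRI4h and 18.2 in SHAM4h.

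Other genes were higher at 2 than at 4 hours. Bsnd, the chloride channel subunit barttin, averaged 23.1 ± 4.28 FPKM in IRI2h, 8.04 in IRI4h and 14.4 in SHAM4h. Sall2, a zinc finger factor, averaged 6.63 FPKM in IRI2h, 2.15 in IRI4h and 2.31 in SHAM4h, and 7.52 ± 0.541 in SHAM24h. Flrt1, a membrane protein of the FLRT family, averaged 7.60 FPKM in IRI2h, 2.76 in IRI4h, 1.73 in SHAM4h and 7.39 in SHAM24h. Dusp1 was higher at 2 hours as well (log2 difference 0.79), with 284 FPKM in IRI2h and 166 in IRI4h, and kept its call when IRI4h-R2 was left out but not when any other of the 6 kidneys was (0.66 to 0.85). Gm15564 averaged 40.2 FPKM in IRI2h and 2.16 in IRI4h (4.17, limma adjusted p = 9.9e-08). Sox18, an endothelial factor, averaged 5.90 FPKM in IRI2h, 2.64 in IRI4h and 10.7 in SHAM4h.

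**Figure D5:**
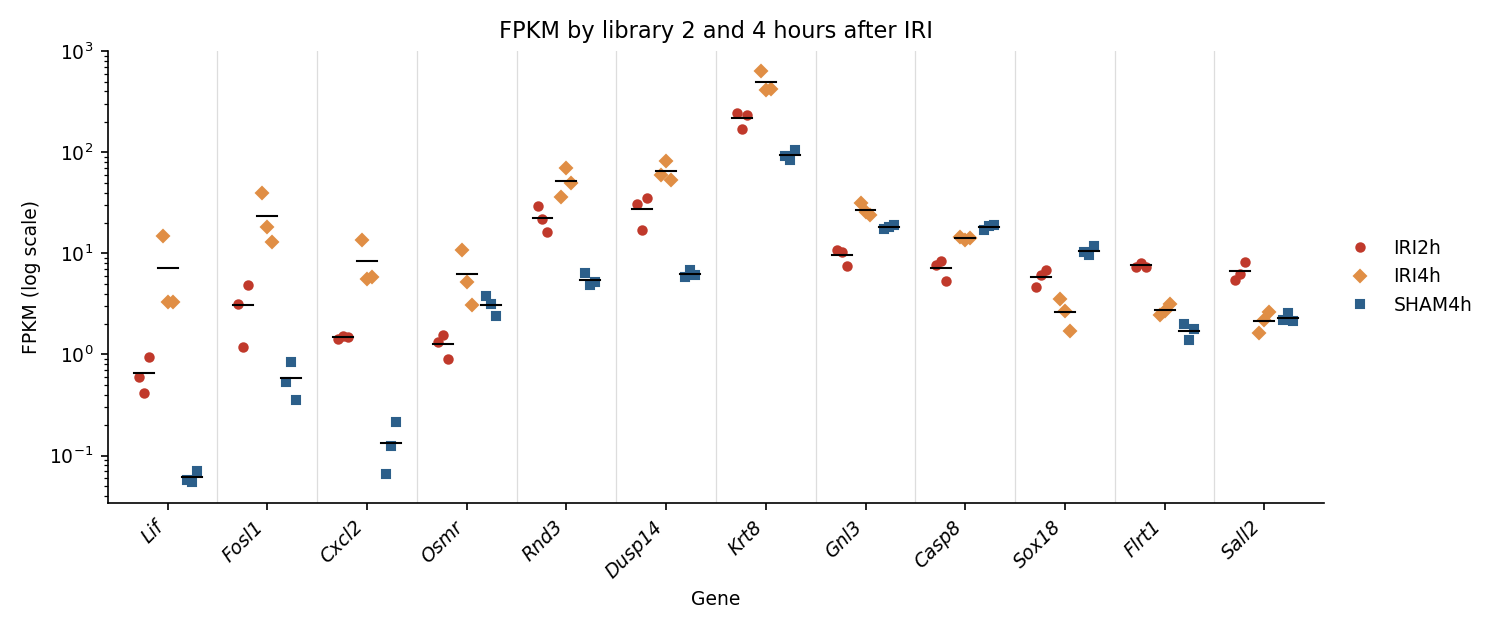
FPKM (log scale) of each kidney in IRI2h (red circles), IRI4h (orange diamonds) and SHAM4h (blue squares), with group means as lines. Lif, Fosl1, Cxcl2, Rnd3, Dusp14 and Krt8 lie lower in IRI2h than in IRI4h, while Sox18, Flrt1 and Sall2 lie higher.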

How the data were processed

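Whole-kidney libraries (TruSeq v2, poly(A), unstranded, paired 100-cycle reads) were aligned by the authors with STAR 2.5.0b to mm10 with GENCODE M4, and duplicates were removed. The authors deposited FPKM values, 1 column for each of 49 libraries. The tool that computed FPKM is not given in the sources used here. At least 94.9% of low values in the 4 groups used were whole numbers of reads (within 0.1 read) at the library sizes given, which assume 1 length per gene in all libraries.

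The authors tested counts with DESeq2. Since the deposited values are FPKM, log2(FPKM + 0.1) of the genes with at least 1 FPKM in at least 3 libraries was fitted here with limma 3.58.1 (R 4.3.3, trend and robust options), with the 16 groups of the series in 1 model, no block and Benjamini-Hochberg adjustment over all genes at 0.05. On data simulated for IRI2h against SHAM4h over 14895 genes, 96% and 92% of log2 changes of 2 and -2 were recovered and 74% and 76% of changes of 1 and -1, with 12 unchanged genes called. Changes were placed only in genes whose mean log2(FPKM + 0.1) over all libraries was above 1, so the recovery does not cover lower genes. The simulated noise was independent between genes and held no deviation with GC content or length. The simulation therefore cannot measure how many calls in the real libraries come from such deviations. Tables and plots were made with Python 3.11.15, pandas 2.3.3, numpy 2.4.6 and matplotlib 3.10.9. Promoters are from RefSeq (GRCm38.p6), and gene lengths, GC content and spans from GENCODE M21 (GRCm38).

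Members and gene lists were chosen with earlier results of these data known. Genes named are up to 6 members of each list with the largest absolute change, members that passed against their list's majority, the 15 higher and 15 lower coding genes (mean of at least 5 FPKM, no overlap between groups) with the largest change, 6 and 6 noncoding genes (at least 1 FPKM) by the same rule, and 10 and 10 coding genes for IRI2h against IRI4h. Not every gene the rule gives is described, and some are not reported here. Genes outside it are marked in the text. Alternatives changed the pseudocount, filter, scaling, samples fitted, control group, fold threshold, replicate block and libraries. The GC and length correction (a spline per library) was added after seeing the data.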

Additional observations from a re-analysis of the deposited data

Results flagged for a closer look

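Of the tested genes named in the text, 65 differed between IRI2h and IRI4h in the limma test of that difference (adjusted p under 0.05 over all genes). The test is also one of the difference between their changes from the same SHAM4h kidneys. Values here are without the GC correction, and the part of GC content in these differences was not tested. Values are log2 differences, IRI2h minus IRI4h. Higher at 2 hours were 13: Gm15564 (4.17), Sall2 (1.59), Bsnd (1.55), Ccl4 (1.49), Slc14a2 (1.44), Flrt1 (1.44), Sox18 (1.17), Cldn19 (1.04), G6pc (0.85), Klf2 (0.84), Dusp1 (0.79), Tie1 (0.56) and Polr1a (0.44). They include solute transport and junction genes of the distal nephron (Bsnd, Slc14a2, Cldn19), endothelial factors (Sox18, Klf2) and, of the immediate early set, Dusp1. Of 19 tested genes of the thick ascending limb and distal convoluted tubule, 2 were higher and 0 lower in IRI2h than in IRI4h. Of 16 collecting duct genes, 1 was higher and 0 lower, against 10.6% and 13.7% of all genes. Slc14a2 lost its call without IRI2h-R2, IRI2h-R3 or IRI4h-R2. The endothelial list as a whole was split, with 5 of 22 tested genes higher and 4 lower in IRI2h than in IRI4h.

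Lower at 2 hours by 2 or more were 9: Krt20 (-5.19), Il6 (-3.96), Lcn2 (-3.47), Lif (-2.96), Prrg4 (-2.96), Fosl1 (-2.95), Cxcl2 (-2.29), Ccl2 (-2.24) and Osmr (-2.09). These are mostly cytokines, a receptor chain of the interleukin 6 family (Osmr) and injury markers, and each averaged below 5 FPKM in IRI2h. The IRI4h kidneys spread widely: Krt20 had 80.2, 30.7 and 7.92 FPKM and Lcn2 93.5, 12.3 and 5.87 FPKM. Without IRI4h-R1 the difference was -4.40 for Krt20, -2.32 for Lcn2 and -1.60 for Ccl2, and the last 2 did not pass. Ccl2 did not pass without IRI2h-R2 either (-1.84), while without IRI4h-R3 it was -6.06 for Krt20 and -4.31 for Lcn2. Lower by 1 to 2 were 21: Akap12 (-1.97), Sox9 (-1.87), Cry1 (-1.61), Gm17024 (-1.60), Maff (-1.55), Dusp5 (-1.53), Gnl3 (-1.50), Jak2 (-1.49), Pdk4 (-1.37), Rnd1 (-1.31), Dusp14 (-1.28), Zc3h12a (-1.27), Neat1 (-1.25), Hsph1 (-1.24), Wdr43 (-1.23), Ncl (-1.22), Rnd3 (-1.19), Krt8 (-1.17), Angptl4 (-1.15), Acadm (-1.08) and Casp8 (-1.004). Lower by less than 1 were 22: Mdm2 (-0.99), Pmaip1 (-0.96), Hspa5 (-0.92), Rela (-0.90), Nab1 (-0.89), Bhlhe41 (-0.86), Hspa9 (-0.80), Gadd45a (-0.79), Wdr75 (-0.74), Fas (-0.74), Nampt (-0.71), Npm1 (-0.68), Bag3 (-0.67), Ndufs1 (-0.64), Mafk (-0.56), Hsp90ab1 (-0.51), Mcl1 (-0.51), Mnt (-0.50), Pax8 (-0.49), Uqcrc2 (-0.44), Dnajb6 (-0.42) and Cnot7 (-0.41). Among these last groups are chaperones (Hsph1, Hspa5, Hspa9, Bag3, Hsp90ab1) and ribosome biogenesis genes (Gnl3, Wdr43, Ncl, Wdr75, Npm1). When 1 library was left out at a time, 36 of the 65 kept their call every time. The number lost was 7, 14 and 18 without IRI2h-R1, R2 and R3, and 16, 15 and 8 without IRI4h-R1, R2 and R3.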

How the results depend on the processing

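Counts of genes past the test moved with the samples fitted. With only the groups compared, 1954 genes were higher and 814 lower than in SHAM4h, and 81 higher and 102 lower than in IRI4h. The GC and length correction gave 2164 higher genes, or 1515 without IRI2h-R3 and 1677 against SHAM24h. The number of higher genes was 984 against SHAM24h, 2045 against the 6 early shams and 2078 against all 9. Of these 9, SHAM12m-R3 is a sham by its title but has a source name that reads as IRI. The median over all genes was -0.15 against SHAM24h. A pseudocount of 1 left 59 genes at least 4-fold higher and 12 lower, and a fold threshold of 2 gave 744 and 642. Genes at least 4-fold lower numbered 126 against SHAM24h, or 69 with the GC correction. Against IRI4h, 1294 genes were lower with the GC correction and without IRI2h-R3. Leaving out 1 library at a time gave 2560 to 3094 higher and 1308 to 3099 lower genes against SHAM4h, 1030 to 1521 and 1031 to 2417 against IRI4h, and 34 to 81 at least 4-fold lower. The other settings, among them pseudocount 0.01, no filter, the early libraries, quantile normalization, median centring and uninjured kidneys without surgery (NORM3m) as control, kept every count within 1.5 times. The cause of these differences was not tested.

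The main fit did not pair samples by replicate number. Deviations of same-numbered IRI2h and SHAM4h kidneys correlated at -0.02 to 0.17 across genes, and other pairs at -0.19 to 0.14. With the replicate block in the fit of all libraries, 3333 genes were higher and 2728 lower than in SHAM4h. With the block and only the groups compared, the counts were 1178 and 475, and 0 and 0 against IRI4h by limma, where 3345 genes had an unadjusted p under 0.05.

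Of 188 tested genes named in the text, 178 passed against SHAM4h, and 86 of these kept their direction and passed in every alternative. Calls were kept by 129 genes against SHAM24h, 162 with the GC correction, 155 without IRI2h-R3, 149 with only the groups compared, 173 with quantile normalization and 175 with median centring. Against SHAM24h the sign turned, in log2 difference, for 8430408G22Rik (2.95), Angptl4 (1.14), Bsnd (-0.32), Ccl28 (0.78), Cdh6 (-0.40), Cldn19 (-0.29), Col1a1 (-0.0688), Cry1 (0.13), Fkbp5 (0.31), G6pc (0.27), Max (0.18), Neat1 (-2.50), Nr1h4 (0.21), Pck1 (0.30), Pdk4 (3.39), Polr1b (-0.0769), Psat1 (0.36), Sall2 (-0.20), Sesn2 (0.33), Slc14a2 (-0.0686), Slc25a37 (-0.35), Slc37a4 (0.35) and Vegfa (-0.35). With the GC correction against SHAM24h it turned for 8430408G22Rik (2.76), Angptl4 (1.16), Bsnd (-0.42), Ccl28 (1.34), Cldn19 (-0.36), Cnot7 (0.15), Col1a1 (-0.11), Cry1 (0.11), Dnajb6 (0.0087), Fas (0.18), Fkbp5 (0.37), G6pc (0.42), Max (0.25), Mdm2 (0.0831), Neat1 (-2.11), Nr1h4 (0.38), Pck1 (0.24), Pdk4 (3.73), Polr1b (-0.0425), Prrg4 (0.20), Psat1 (0.51), Rc3h1 (0.22), Rc3h2 (0.13), Sall2 (-0.23), Sesn2 (0.24), Slc14a2 (-0.0797), Slc25a37 (-0.16), Slc37a4 (0.26), Tfcp2l1 (0.26), Ttpa (0.23), Upp2 (0.12) and Vegfa (-0.33). Against NORM3m it turned for 8430408G22Rik (1.10), Angptl4 (0.51), Cldn19 (-0.0619), Cryab (-0.0443), Dnajb6 (0.36), G6pc (0.47), Gm15564 (-0.996), Neat1 (-1.29), P4ha1 (-0.23), Pck1 (0.0514), Pdk4 (2.88), Ppara (0.12), Prrg4 (0.0370), Sesn2 (0.49), Slc14a2 (-0.0840), Slc37a4 (0.58) and Tfcp2l1 (0.0878). Against both early sham groups it turned for 8430408G22Rik (0.0099), Neat1 (-0.73) and Pdk4 (1.20), and against all 9 shams for 8430408G22Rik (0.58), Neat1 (-0.78), Pdk4 (1.64), Psat1 (0.14), Slc25a37 (-0.0142) and Slc37a4 (0.0103). With the GC correction alone it turned for Ccnd3 (-0.24) and Cnot7 (0.25), and with that correction and no IRI2h-R3 for Ccnd3 (-0.38), Cnot7 (0.19), Polr1a (-0.0916) and Uqcrc1 (-0.13). The GC alternatives were chosen after seeing the data.

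Low genes limit the comparison: values below 1 FPKM rest on few reads, and 3 kidneys per group leave an SE of 0.5 or more on the log2 scale for genes such as Il6 and Cxcl2. The sham kidneys nearest in time were taken 2 hours later, so that clamp, time since surgery and time of day cannot be told apart.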
